A study of Bos grunniens with 6 samples.

Results

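The 728 regions described here were the wide 5′ UTR peaks of the N6-methyladenosine (m6A) map of cattle-yak testis. They were chosen from the peak list as all peaks that its annotation placed in a 5′ UTR and whose width on the genome was 1001 to 50000 bp, and they made up 728 of 16186 listed peaks (4.50%, 95% Wilson interval 4.19 to 4.83%). They lay on 683 of the 8986 genes with a listed peak, or 7.60%. The series held 6 libraries from the testes of 3 healthy cattle-yaks, all 5 years old and called TES5, TES6 and TES7, with 1 immunoprecipitated (IP) and 1 input library from each animal. The cattle-yak is the hybrid of yak and cattle, whose males are sterile, and the testes were removed by castration. All animals belonged to this 1 group, so no treatment or genotype could be compared. A single peak list stood for all 3 animals, with no enrichment score, read count or value per animal. Positions are given on the yak genome LU_Bosgru_v3.0, to which the reads of the hybrid were aligned.

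m6A is laid down on messenger RNA by a nuclear writer complex built around METTL3 and METTL14, removed by the erasers FTO and ALKBH5, and bound by readers such as the YTH domain proteins. Most m6A in mammals lies near the stop codon and in the 3′ UTR. In the 5′ UTR it has been tied to translation that does not need the cap, through the initiation factor eIF3, and to the translation of heat shock transcripts. Antibodies against m6A also bind m6Am, the related base next to the cap, and these data cannot tell the modifications apart near a transcript start.

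The wide peaks were the larger share of the 5′ UTR class. They made up 728 of its 1427 peaks (51.0%, 95% Wilson interval 48.4 to 53.6%), beside 601 narrow peaks of up to 1000 bp and 98 peaks over 50000 bp. Their median width was 7274.5 bp, with quartiles of 3128 and 16648 bp. By width, 114 members spanned 1001 to 2000 bp, 158 spanned 2001 to 5000 bp, 162 spanned 5001 to 10000 bp, 150 spanned 10001 to 20000 bp and 144 spanned 20001 to 50000 bp. Width was measured on the genome with introns included, so a wide peak is not a long stretch of methylated RNA. The members thus covered the allowed range without a gap, and the limits cut a continuous distribution. Just inside the lower limit stood PIP5K1C at 1015 bp and LRATD2 at 1019 bp, and just outside it PDE3B at 996 bp and PEX7 at 993 bp. At the upper limit MARCHF8 at 49763 bp was inside, and SLMAP at 50049 bp was outside.

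**Figure D1:**
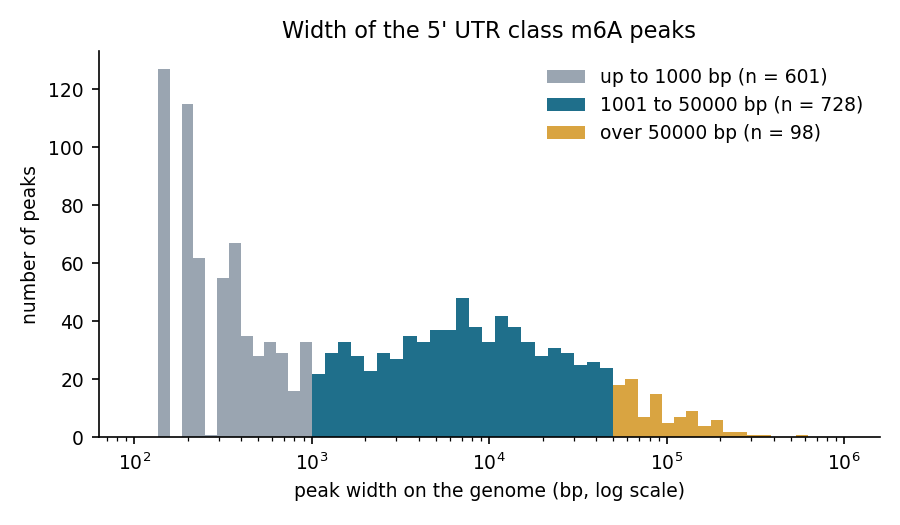
Number of 5′ UTR class peaks by width on the genome in bp, on a log axis, for the narrow (n = 601), wide (n = 728) and over 50000 bp (n = 98) peaks. The narrow peaks pile up at a few short widths, while the wide peaks spread broadly over their whole range around a median of 7274.5 bp.

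The 5 widest members lay on MARCHF8, ANKRD12, ZNF608, AATF and ZSCAN30. The peak on MARCHF8, a membrane-bound ubiquitin ligase, lay at chr27:46236209-46285971 on the plus strand, began exactly at the start of the listed transcript and covered 85.4% of its span. The peak on ANKRD12 was 49577 bp wide, began 50 bp into the transcript and covered 72.0% of it. The peak on AATF, a nucleolar factor that interacts with RNA polymerase II, was 48968 bp wide and covered 39.1% of the transcript span. The peak on ZNF608 was 49399 bp wide and covered 43.6%. On ZSCAN30 the peak was 48671 bp wide but the listed transcript spanned only 1327 bp, all of it inside the peak. Expression differed among these genes, with input levels of 9.43 ± 0.402 FPKM for MARCHF8, 8.27 ± 0.872 for ANKRD12, 6.57 ± 0.961 for ZNF608, 16.4 ± 1.86 for AATF and 0.397 ± 0.151 for ZSCAN30 (mean ± SD, n = 3 animals). FPKM is a fragment count scaled by transcript length and by library size, and so a level per length in the input RNA.

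The members gathered around the start of their transcripts. The listed transcript start lay inside 271 of the 728 members (37.2%, 95% Wilson interval 33.8 to 40.8%). This share was 28.1% among the 601 narrow 5′ UTR peaks, a difference of 9.11 percentage points (Newcombe 95% interval 4.04 to 14.1). Among the 1065 wide 3′ UTR peaks, which were chosen by the same widths, it was 3.38%, and the difference was 33.8 points (30.2 to 37.5). These intervals cover counting error only. A wider interval has more room to hold any given point, and the class itself was assigned from position, so neither difference separates width or class from where the peak began.

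The upstream edge of the members lay at various distances from the listed start. It lay upstream of the listed start in 181 members (24.9%), beside 12.0% of narrow 5′ UTR peaks. It lay 1 to 200 bp downstream of the start in 122 members (16.8%), beside 24.5% of narrow peaks. It fell exactly on the start in 90 members (12.4%) and 16.1% of narrow peaks. It lay 201 to 1000 bp downstream in 143 members (19.6%, narrow peaks 22.6%), 1001 to 10000 bp downstream in 71 (9.75%, narrow peaks 9.65%) and more than 10000 bp downstream in 121 (16.6%, narrow peaks 15.1%). Width chose the members, and a narrow peak cannot begin far upstream and still reach its transcript, so these shares are given side by side with no test of their difference.

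**Figure D2:**
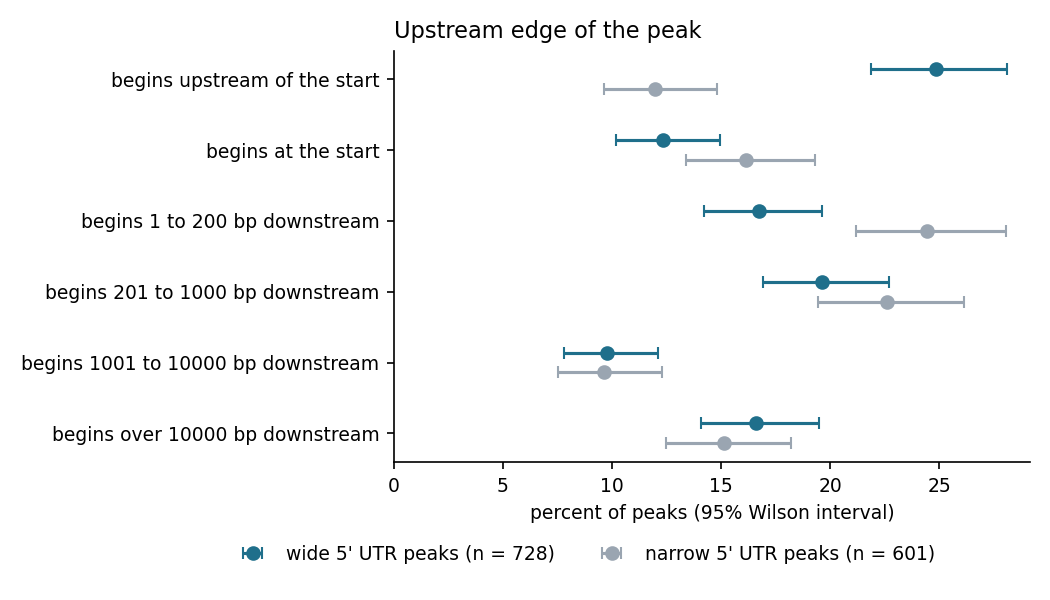
Percent of peaks, with 95% Wilson intervals, by where the upstream edge of the peak lay relative to the start of its listed transcript, for wide (n = 728) and narrow (n = 601) 5′ UTR peaks. Peaks beginning upstream of the start were 24.9% of the wide and 12.0% of the narrow peaks, and those beginning 1 to 200 bp downstream were 16.8% and 24.5%.

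Among the 181 members that began upstream, the median overhang was 3189 bp, 129 reached over 1000 bp upstream and 43 reached over 10000 bp. The peaks of CUL3, WDR13 and NOBOX were of this kind. CUL3, the scaffold of a cullin ubiquitin ligase, carried a 41576 bp member that covered only 0.110% of its transcript span. On WDR13 the 15069 bp peak covered 0.0426%, and the wider of the 2 peaks on NOBOX, a homeobox gene best known from oocytes, covered 0.979%. In all, 62 members (8.52%) covered less than 1% of the transcript to which they were assigned. In 122 members (16.8%) the larger part of the peak's width lay outside the span of that transcript. The expression values given for such members belong to the assigned gene.

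**Figure D3:**
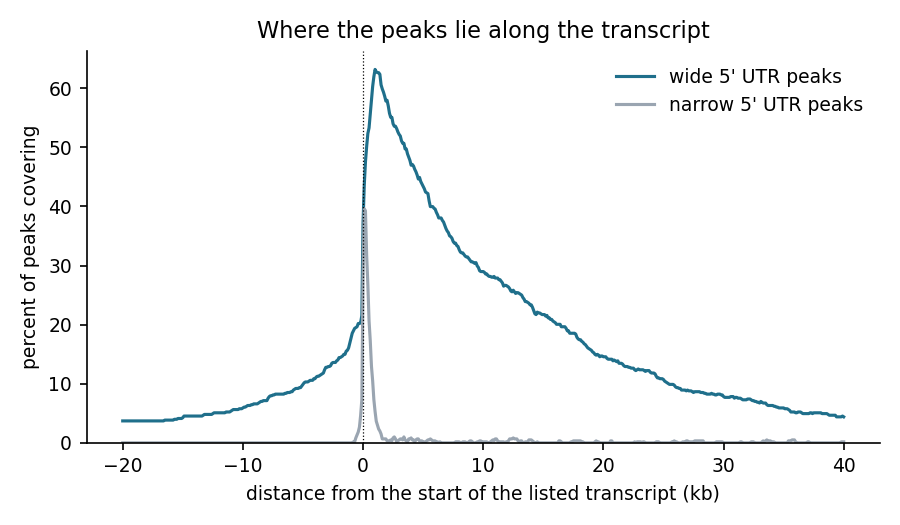
Percent of wide and narrow 5′ UTR peaks that cover each position from 20 kb upstream to 40 kb downstream of the listed transcript start, along the direction of transcription. The wide peaks rise from 17.7% at 1000 bp upstream to 63.2% at 1000 bp downstream and fall to 14.6% at 20000 bp, while the narrow peaks cover 28.1% at the start and 5.32% at 1000 bp downstream.

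Coverage of the transcript was uneven between members. The median member covered 20.9% of the span of its listed transcript, against 0.731% for narrow 5′ UTR peaks and 10.1% for wide 3′ UTR peaks. At least 50% of the span was covered by 185 members (25.4%), and 16 members (2.20%) held the whole transcript. The whole transcript was held on PNO1, a ribosome assembly factor at 39.3 ± 9.87 FPKM, NUP88, a nuclear pore protein at 20.3 ± 1.92 FPKM, STK16, a kinase at 17.0 ± 0.673 FPKM, KCTD6 at 7.07 ± 0.552 FPKM, and HOXC6 at 3.84 ± 0.215 FPKM (mean ± SD, n = 3). The peaks on PNO1, NUP88 and STK16 also overlapped a listed transcript of another gene on the opposite strand. The peak on KCTD6 was exactly as long as its transcript, at 2124 bp. On SYCP3, which builds the axial element of meiotic chromosomes, the peak at chr5:39764346-39771286 began at the start and covered 96.9% of the span.

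Upstream edges were not spread evenly in the first bases after the start. Of the 153 members that began 1 to 300 bp downstream, 110 (71.9%, 95% Wilson interval 64.3 to 78.4%) began within 2 bp of a multiple of 50 bp from the start. Narrow 5′ UTR peaks did the same in 75.0% of 176 cases. Offsets within this range therefore mostly fell on steps of 50 bp, and smaller differences in where peaks began cannot be read.

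Most member genes carried 1 wide 5′ UTR peak. This held for 647 of the 683 genes, while 31 carried 2 and 5 carried 3 or more. PSTPIP1, which encodes a cytoskeletal adaptor protein, carried 5 on a listed transcript of 345749 bp, and 2 pairs of them were nearly the same interval, such as chr17:34293918-34320188 and chr17:34293930-34320197. HIVEP1, a zinc finger transcription factor, carried 4. HOXC6 and FAM184A carried 3 each. When overlapping members on the same gene, and those no more than 100 bp apart, were joined, 712 regions were left. Another listed peak overlapped 68 members (9.34%), and in 17 members (2.34%) it belonged to another gene. Only transcripts of genes with a listed peak were searched, so the next counts are lower limits. A listed transcript of another gene overlapped 52 members (7.14%), and in 32 members (4.40% of all members) such a transcript lay on the opposite strand. The libraries were made with a stranded kit, but whether peak calling and counting used strand is not given in the sources used here, so those regions are uncertain as to gene. Those with an opposite-strand transcript included members on ZSCAN30, PNO1, NUP88, STK16, LRRC19, NANOS3 and TSC2, which are described in this report.

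More member genes than narrow 5′ UTR peak genes had no other peak. The wide 5′ UTR peak was the only listed peak on 247 of 683 genes (36.2%, 95% Wilson interval 32.6 to 39.8%), while 54.0% of all genes with a peak had a single peak. Genes with narrow 5′ UTR peaks had a single peak in 26.2% of cases, a difference of 9.96 points (Newcombe 95% interval 4.74 to 15.1). Genes with peaks of the same widths in other classes were close to the member genes. For wide 3′ UTR peak genes the share was 39.0%, a difference of -2.87 points (-7.50 to 1.83), and for wide exon peak genes 38.4%. A 3′ UTR class peak was also present on 177 member genes (25.9%) and on 30.8% of narrow 5′ UTR peak genes, a difference of -4.90 points whose interval (-9.99 to 0.168) included 0. An exon class peak was also present on 304 member genes (44.5%) and on 52.0% of narrow 5′ UTR peak genes, a difference of -7.52 points (-13.1 to -1.89). Among wide 3′ UTR peak genes an exon class peak was present on 45.9%, a difference of -1.38 points (-6.17 to 3.43). Both kinds of 5′ UTR peak occurred on 52 genes, and 74 genes carried both a wide 5′ UTR and a wide 3′ UTR peak. These genes counted on both sides and cannot have a single peak, while the Newcombe intervals take the sides as separate. A wide interval may take in nearby short peaks that would otherwise be listed apart. Another listed peak of the same gene did overlap 53 members (7.28%). How much of these differences such merging makes up was not tested.

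Expression was available for 681 of the 683 member genes, which carried 726 of the 728 members. Of these, 637 (93.5%) had at least 1 FPKM in each of the 3 input libraries, 319 (46.8%) had a mean of at least 10 FPKM and 9 (1.32%) a mean of at least 100 FPKM. The median member gene stood at 9.27, 9.06 and 9.26 FPKM in these animals, in the order TES5 to TES7. The narrow 5′ UTR peak genes stood at 7.29, 7.37 and 7.63 FPKM, and the wide 3′ UTR peak genes at 9.997, 10.06 and 10.18 FPKM. The member genes were thus between these classes in every animal, with no overlap between the animals' medians.

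With genes that carried both kinds left out, the median of log2(FPKM + 1) was higher for 629 wide than for 489 narrow 5′ UTR peak genes by 0.34 in TES5, 0.30 in TES6 and 0.26 in TES7 (mean difference 0.30 ± 0.04 SD, n = 3 animals). It was lower than that of the wide 3′ UTR peak genes by a mean of 0.13 on the same scale, with differences of -0.10, -0.15 and -0.14. Each difference kept its sign in 3 of 3 animals and was larger than its SD. The same genes were measured in each animal, so signs and SD show the spread between animals only. They hold no error from which genes fell in each class. The exact two-sided sign-flip permutation test gave p = 0.25 for both, the smallest value that 3 animals allow, so neither could reach significance. A peak can be called only where there are enough reads, and the part of read depth in these differences was not tested.

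**Figure D4:**
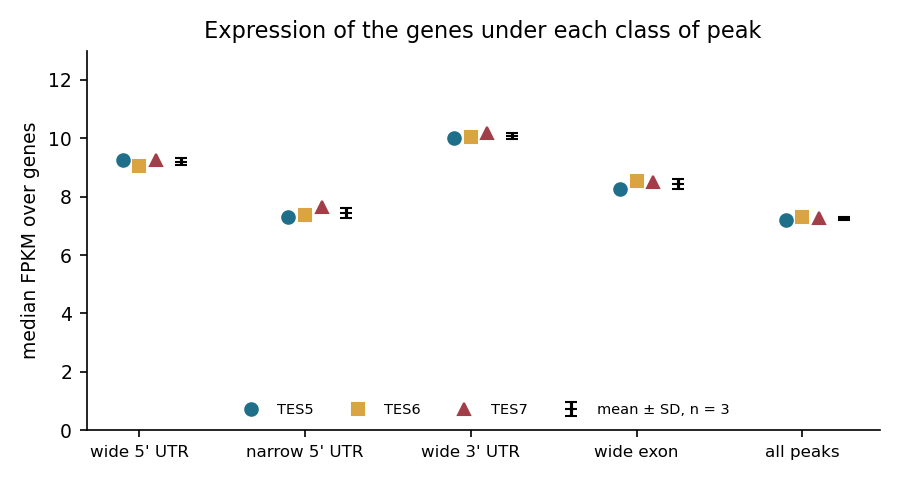
Median FPKM over the genes under each class of peak, with 1 point for the input library of each animal and the mean and SD over the 3 animals beside the points. The wide 5′ UTR peak genes (9.20 ± 0.121 FPKM) lie above the narrow 5′ UTR peak genes (7.43 ± 0.177) and below the wide 3′ UTR peak genes (10.1 ± 0.0907) in each animal.

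Within the members, width and expression had no simple order. Median expression was 8.97 ± 0.153 FPKM for members of 1001 to 2000 bp, 8.58 ± 0.210 for 2001 to 5000 bp, 9.65 ± 0.330 for 5001 to 10000 bp, 10.4 ± 0.407 for 10001 to 20000 bp and 8.17 ± 0.364 for 20001 to 50000 bp (mean ± SD of the animals' medians). The share of members that held the transcript start was also similar across these bins, from 35.3% to 39.6%. It fell with the span of the transcript, from 50.0% (95% Wilson interval 41.6 to 58.4%) of 132 members on transcripts of up to 10000 bp to 23.0% (16.4 to 31.2%) of 122 members on transcripts over 100000 bp.

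The most abundant member genes were TMEM215, APOA1, SPARC, MYL6 and YWHAZ. TMEM215 (ENSBGRG00000001455), a transmembrane protein gene, stood at 915 FPKM in TES5, 669 in TES6 and 888 in TES7. It carried 2 members, of which chr7:111987383-111988863 began at the transcript start on the minus strand. APOA1 (ENSBGRG00000003668), the main protein of high-density lipoprotein, stood at 483, 363 and 329 FPKM, and its peak at chr13:60238316-60239932 covered 96.3% of the transcript. TMEM215 was lowest in TES6 and APOA1 highest in TES5.

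SPARC, a matrix protein that binds collagen, stood at 403, 375 and 396 FPKM in TES5, TES6 and TES7. MYL6, a light chain of non-muscle myosin, stood at 199, 180 and 189 FPKM. YWHAZ, a 14-3-3 adaptor of phosphorylated proteins, stood at 161, 194 and 186 FPKM, under a peak that covered 86.5% of its transcript. These values varied less between animals than those of APOA1, with coefficients of variation (CV, the SD as a percent of the mean) of 3.74% for SPARC, 4.94% for MYL6 and 9.58% for YWHAZ against 20.7% for APOA1.

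Separately, 4 of 681 member genes (0.587%) were listed at 0 FPKM in all 3 animals, beside 82 of 8775 genes with a peak (0.934%). They were KLHL20, LRRC19, PRNP and IFFO1, and without read counts a listed 0 cannot be told from a missing estimate. Their peaks were 36897, 23418, 16819 and 8627 bp wide, and those on KLHL20, PRNP and IFFO1 held the whole listed transcript, which spanned only 1011, 387 and 1115 bp. No FPKM value was joined for 2 further member genes.

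Translation initiation and heat shock, the processes for which 5′ UTR m6A is best known, were represented by 1 gene each. Of all 7802 gene symbols with a listed peak, 670 (8.59%) carried a wide 5′ UTR peak, the background for the counts that follow. In translation initiation the count was 1 of 21 symbols with a peak. It was EIF3B, a core subunit of eIF3, at 60.9, 61.0 and 66.2 FPKM in TES5, TES6 and TES7, with a 6617 bp peak that began 248 bp into the transcript. Among heat shock genes it was 1 of 12, HSPH1, a co-chaperone of the HSP70 system, at 32.7, 27.1 and 31.8 FPKM. Among the m6A machinery it was 0 of 15, and only FTO of these carried any 5′ UTR class peak. The shares were 4.76% for translation initiation, 8.33% for heat shock and 0% for the m6A machinery, beside the background of 8.59%. With so few symbols a share like the background would amount to few genes, so these counts are not read as a lack.

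Several ubiquitin ligases were members. Of 36 symbols with a peak 9 carried a wide 5′ UTR peak, a larger share than the background of 8.59%. They were TRIP12, CUL3, WWP1, ANAPC2, UBE3A, XIAP, CBLB, NEDD4L and FBXW7. TRIP12, a ligase of the HECT type, stood at 59.3, 66.3 and 63.1 FPKM in TES5, TES6 and TES7, and its peak at chr2:20534166-20552037 held the transcript start. CUL3 stood at 49.8, 39.2 and 39.1 FPKM and was highest in TES5.

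WWP1, another HECT ligase, stood at 26.3, 26.6 and 25.7 FPKM. ANAPC2, the cullin subunit of the anaphase-promoting complex, stood at 28.1, 21.6 and 23.1 FPKM, and its 1022 bp peak lay almost wholly upstream of the transcript. UBE3A, XIAP, CBLB, NEDD4L and FBXW7 had means between 3.00 and 11.9 FPKM. The positions were as varied as in the members as a whole, since the peak of NEDD4L began 345970 bp into a transcript of 431448 bp and that of UBE3A exactly at the start. The list was chosen with earlier results of these data known, and no test was made of its count.

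The germ cell lists were short. Of 5 spermatogonia markers with a peak, ZBTB16 and NANOS3 carried wide 5′ UTR peaks, and of 8 spermatocyte markers SYCP3 and DMC1 did. No member lay on any of the 2 spermatid, 7 Sertoli cell, 1 Leydig cell, 5 peritubular myoid cell or 9 macrophage and endothelial markers with a peak. With 24 symbols in these 5 lists, a share like the background would amount to few genes. The tissue itself was marked by Sertoli genes such as SOX9 at 27.5 ± 0.807 FPKM and WT1 at 29.6 ± 4.94 FPKM (mean ± SD, n = 3).

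ZBTB16, a transcription factor of undifferentiated spermatogonia, stood at 6.61, 8.76 and 11.2 FPKM in TES5, TES6 and TES7. NANOS3, an RNA-binding protein of early germ cells, stood at 8.44, 6.75 and 9.02 FPKM and carried 2 members. SYCP3 stood at 24.4, 18.0 and 19.8 FPKM, and DMC1, the meiotic strand exchange protein, at 21.4, 8.72 and 15.4 FPKM. Both spermatocyte genes were highest in TES5 and lowest in TES6, while ZBTB16 was lowest in TES5. In bulk tissue, fewer cells of a type and less RNA per cell cannot be told apart.

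The other lists were near or below the background, or held too few genes to set against it. In chromatin regulation 3 of 57 symbols with a peak were members: SMARCA2, a remodelling ATPase at 25.7 ± 3.39 FPKM, KDM4C, a histone demethylase at 7.58 ± 0.640 FPKM, and DNMT3A, a de novo DNA methyltransferase at 5.32 ± 0.606 FPKM. In actin regulation it was 3 of 40, with ACTR3, a subunit of the Arp2/3 complex, at 69.1 ± 2.41 FPKM under a 34544 bp peak, ROCK2 at 4.45 ± 0.435 FPKM and DIAPH3 at 2.95 ± 0.133 FPKM. In TGF-beta, Notch and Wnt signalling it was 2 of 42, SMAD4 at 13.7 ± 2.64 FPKM and SMAD1 at 5.30 ± 0.683 FPKM. In the Fanconi anemia pathway of DNA crosslink repair it was 2 of 22, FAN1 at 11.1 ± 0.342 FPKM and FANCL at 3.40 ± 1.18 FPKM.

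In the MAP kinase cascade TAOK2, at 7.71 ± 0.889 FPKM, was the member among 34 symbols with a peak. In apoptosis it was BCL2L2, a survival protein at 33.6 ± 5.55 FPKM, among 15. Among the 19 genes named by the study that had a peak, CREB1, a transcription factor of cAMP signalling, at 7.95 ± 0.457 FPKM, NFE2L3 at 7.84 ± 0.951 FPKM and SYNE2 at 7.80 ± 1.58 FPKM were members. SYNE2, which links the nucleus to the cytoskeleton, carried 2 members among its 18 listed peaks, and those 2 began 185234 and 282717 bp into the transcript. Part of that list was picked by the study from these samples and part consists of known m6A genes, so this count is not independent evidence.

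Some genes outside the lists were picked out after their values were seen, and no count or test is given for them. NRF factors and genes of the oxidative stress response were among them. NFE2L3, described above, stood on 3 gene identifiers with a peak, and only the least expressed of them carried a wide 5′ UTR peak. NFE2L1, which controls proteasome genes, stood at 57.7, 60.6 and 66.5 FPKM in TES5, TES6 and TES7 under a peak that held the transcript start. NFE2L2 (NRF2), the main regulator of the antioxidant response, stood at 17.2, 20.2 and 17.5 FPKM, under a peak that began 23595 bp into the transcript. CUL3, already described, is the ligase scaffold through which KEAP1 degrades NRF2, but its peak lay almost wholly outside its transcript. The NRF2 targets HMOX1 (14.2 ± 1.92 FPKM) and NQO1 (11.4 ± 2.01 FPKM) were members too, and targets that were not members were not counted.

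Members were also seen on RNA processing genes, picked in the same way. SF3B1, a core spliceosome component, stood at 57.5, 74.1 and 76.1 FPKM, and its peak covered 74.7% of the transcript. DDX6, a helicase of mRNA decay, stood at 34.5, 41.8 and 44.0 FPKM, and CPSF6, a factor of 3′ end formation, at 25.4, 33.8 and 36.2 FPKM. These were lowest in TES5. DGCR8, which works with DROSHA in microRNA processing, stood at 39.3, 30.3 and 32.4 FPKM and was highest in TES5.

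**Figure D5:**
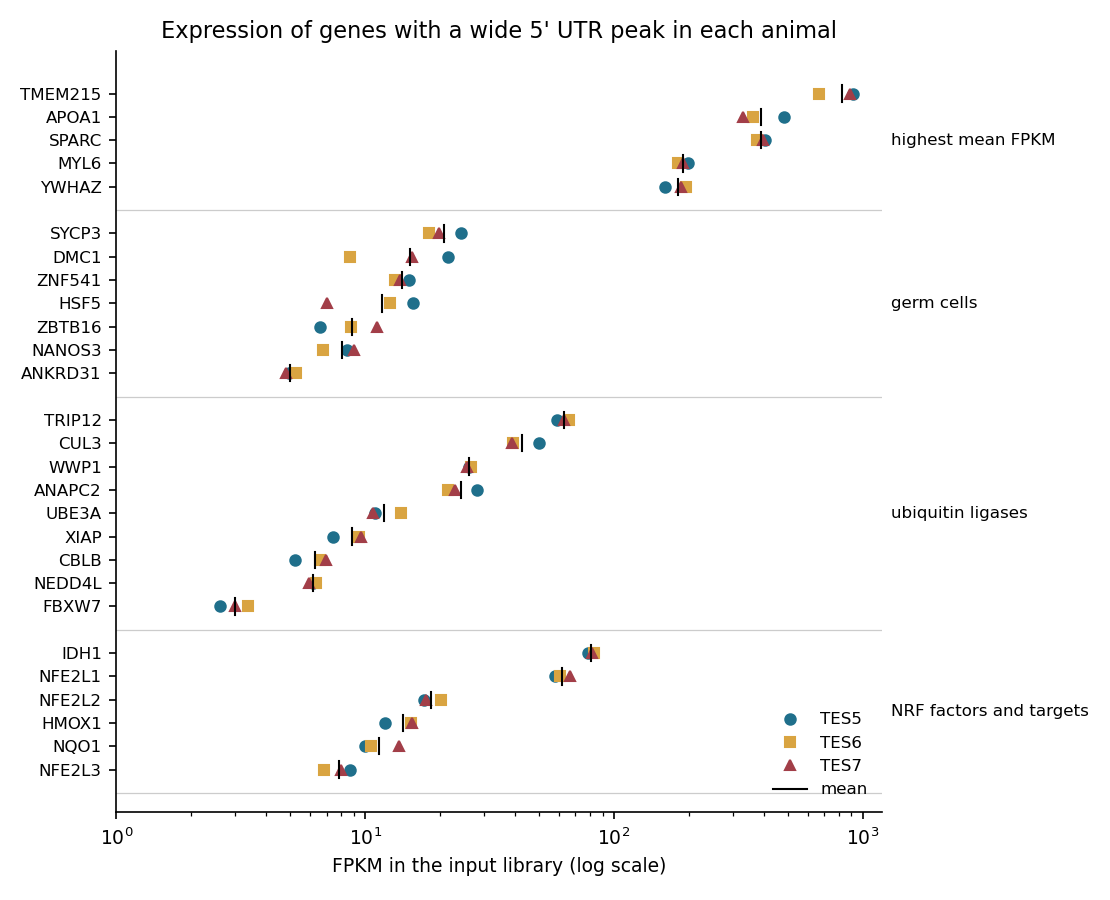
FPKM in the input library of each animal (TES5, TES6, TES7; log axis) for named genes with a wide 5′ UTR peak, with a bar at the mean of the 3 animals. The genes run from 824 FPKM for TMEM215 to 3.00 FPKM for FBXW7, and DMC1 and HSF5 show the widest spread between animals.

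The annotation labels of the member genes are set beside those of all genes with a peak, with no test. Among 622 member genes with a Gene Ontology label, 39.5% were labelled nucleus against 35.3% of 7944 peak genes, 20.3% cytosol against 15.9%, and 7.23% integral component of membrane against 10.4%. Among smaller labels, cell division stood on 21 member genes (3.38% against 1.86%), defense response to virus on 12 (1.93% against 0.806%) and Flemming body on 6 (0.965% against 0.164%). Other small labels went the other way, such as endoplasmic reticulum on 13 (2.09% against 3.26%), Golgi apparatus on 11 (1.77% against 3.35%) and cell differentiation on 6 (0.965% against 2.14%). RNA-directed DNA polymerase activity, a label of retroelement proteins, stood on 16.1% of member genes and 16.7% of peak genes. Of 206 member genes with a KEGG pathway label, 7 (3.40%) were labelled mRNA surveillance pathway against 1.33% of 2547 peak genes, 21 (10.2%) Taste transduction against 6.16%, and 47 (22.8%) Herpes simplex virus 1 infection against 26.0%. The members lay on 31 chromosomes, with 44 on chromosome 3 (6.04%, beside 5.28% of all peaks), 39 on chromosome 17 (5.36%, beside 3.17%), 23 on X (3.16%, beside 3.30%) and 3 on Y (0.412%, beside 0.593%). On the plus strand lay 51.1% of members and 51.1% of all peaks.

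The spread of the member genes between animals was close to that of other genes. Over the 637 genes with at least 1 FPKM in every library, the median CV was 10.3%, with quartiles of 6.49 and 16.1%. It was 10.7% for narrow 5′ UTR peak genes, 11.3% for wide 3′ UTR peak genes and 12.2% for all 11402 genes so filtered. The steadiest member genes with a mean of at least 10 FPKM were WDR13, UBTF, DNAJC10, TSC2 and NOBOX, with CVs from 0.237 to 1.37%. UBTF, a factor of ribosomal RNA transcription, stood at 19.1, 18.8 and 18.9 FPKM in TES5, TES6 and TES7. TSC2, the brake on mTORC1, stood at 11.8, 11.7 and 12.0 FPKM.

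The most variable members by the same rule were DMC1 (CV 41.9%), HSF5 (37.0%), DCUN1D1 (34.1%), RAB20 (30.8%) and UIMC1 (30.3%). HSF5, a heat shock factor family member needed in male meiosis, stood at 15.6, 12.5 and 7.01 FPKM in TES5, TES6 and TES7. DCUN1D1, which promotes the neddylation of cullins, stood at 14.3, 8.23 and 8.21 FPKM. UIMC1, a ubiquitin-binding protein of DNA repair, stood at 18.5, 14.3 and 9.87 FPKM. RAB20, a small GTPase, stood at 17.1, 11.7 and 9.43 FPKM, and all of these genes were highest in TES5. Of genes with at least 1 FPKM in every library, TES5 was the highest animal for 35.9% of member genes and 39.7% of all genes. Of genes above 0 FPKM, it was highest for 36.3% of member genes and 35.7% of all genes with a peak. TES5 also had the largest sum of FPKM.

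Axoneme and cilium genes among the members were mixed in their order of animals. Of 15 member genes with a Gene Ontology label of axoneme, cilium or flagellum, 8 (53.3%) were highest in TES5 and lowest in TES7, against 18.5% of 677 member genes above 0 FPKM. Their median level did not follow that order, at 10.9, 11.5 and 11.5 FPKM in TES5, TES6 and TES7, and their summed level was nearly flat at 356, 345 and 343 FPKM. The same was true of 62 of 171 other peak genes with such a label (36.3%), so the order was also seen outside the members. A weakly expressed example picked after its values were seen was DRC7, a subunit of the axonemal dynein regulatory complex, at 2.11, 1.11 and 0.343 FPKM. SPATA16, a protein of the acrosome and not of the axoneme, was picked in the same way, at 11.5, 5.79 and 1.68 FPKM. Summed over the list, the 2 spermatid markers with a peak stood at 44.2, 31.8 and 18.3 FPKM in the same animals, nearly all from ODF2, and the spermatocyte markers at 94.7, 71.1 and 74.8 FPKM. The part of germ cell content in these values was not tested.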

How the data were processed

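Testis RNA of 3 cattle-yaks was sequenced as m6A-IP and input libraries. The authors trimmed reads with Trimmomatic, aligned them with HISAT2 2.0.4 (submitters' processing notes) to LU_Bosgru_v3.0, called peaks with MeTDiff and annotated them with ChIPseeker. The deposited peak list holds intervals and annotation without counts, and the deposited table holds FPKM of the 3 input libraries. The program behind the FPKM is not given in the sources used here. Neither file holds read counts, and low FPKM values fell on no common step, so expression was compared on log2(FPKM + 1) without a count model.

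The listed transcript's start was taken by strand. Shares have 95% Wilson intervals and their differences Newcombe intervals (counting error only). Animals were compared by exact sign-flip permutation. Scripts were tested on simulated data (Python 3.11.15, pandas 2.3.3, scipy 1.17.1). Where all 3 animals had the same sign, the exact sign-flip permutation test gave its smallest possible value, whatever the spread between animals.

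The members and the 18 gene lists were chosen with earlier results of these data known. Named genes were the 5 widest members, up to 5 genes with the most members, the 5 most abundant, the 5 most and 5 least variable with mean FPKM of at least 10, the 5 most abundant whose whole transcript was held, those listed at 0, and up to 4 per list. Others are stated as picked after their values were seen. Where a symbol stood on several gene identifiers, values are those of the identifier that carried the member. A gene that the rule named is not reported here. Alternatives were another pseudocount (0.1), expression filters, rescaling, width limits and leaving out each animal. No sequences were printed.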

Additional observations from a re-analysis of the deposited data

How the results depend on the processing

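Of 39 recomputed values, 30 were kept and none reversed. Kept meant within the error of the reported value, of similar size for counts, or of the same direction alone for tested differences. Some of the 30 could not move, since keeping unique intervals or members overlapping the listed transcript left all 728 members in place. With an upper width limit of 10000 bp, the median width was 3789.5 bp and the median share of the transcript covered 15.1%. Counting starts within 200 bp of a peak raised the share at the start to 54.0%. Counting genes by symbol lowered the share of single-peak genes to 28.7%. The median log2(FPKM + 1) was 3.35, and was 3.22 with a pseudocount of 0.1, 3.46 for genes with at least 1 FPKM in every library and 3.33 with 1 value per peak. The median CV was 8.85% at a mean of at least 10 FPKM and 11.1% with libraries rescaled to the same sum. Leaving out each animal gave 3.34 to 3.36 for the median, 0.28 to 0.32 for the difference from narrow 5′ UTR peak genes and -0.15 to -0.12 for that from wide 3′ UTR peak genes. Limiting transcripts to spans of 10000 to 100000 bp, an alternative chosen after seeing the data, gave 0.39 and -0.18 for these differences. No paired analysis was possible because the IP libraries have no values per animal. The single peak list without scores limits every count of peaks, since which animals carry a peak is not known.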
